A study of Homo sapiens with 6 samples.

Results

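The genes described here are 10 core genes of autophagy and mitophagy: SMCR8, C9orf72, ULK1, BECN1, ATG7, MAP1LC3B, SQSTM1, OPTN, PINK1 and BNIP3L. They were found by their symbols among the 57905 genes of the authors' table, and each symbol had 1 row. RNA had been sequenced from SKOV3, a human cell line long established from ovarian cancer, in 3 libraries of the genotype labelled CPT1Ash, which carried an shRNA against CPT1A, and in 3 libraries labelled WT. Both groups were in normal culture, and the WT libraries are called control here. CPT1A is the mitochondrial enzyme that couples fatty acids to carnitine so that they can be oxidised, and the series concerns its role in ovarian cancer stem cells. The labels name no control hairpin for the WT cells, so loss of CPT1A and the presence of any hairpin cannot be told apart. The column names give the same hairpin for all 3 CPT1Ash libraries. Effects of that hairpin on other targets therefore cannot be told apart from loss of CPT1A either. The labels call the libraries biological replicates without naming separate transductions or cultures, so the spread between libraries may be in part technical. The 10 genes were chosen by name with the FPKM values and log2 changes of this same comparison known, so their differences are given as a description, without p-values. Where one of them is said to pass the threshold or not, in any fit, that is a description too and no test.

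In autophagy a double membrane closes around cytoplasm or an organelle and delivers it to the lysosome. The ULK1 kinase starts the process, the lipid kinase complex built on BECN1 marks the membrane, and the E1-like enzyme ATG7 drives the conjugation of ATG8 proteins such as MAP1LC3B to lipid. Cargo receptors such as SQSTM1 and OPTN bind ubiquitinated cargo and the ATG8 proteins, and mitochondria are marked for removal by the kinase PINK1 with the ligase Parkin or through membrane receptors such as BNIP3L. SMCR8 and C9orf72 form a complex with WDR41 that acts on small GTPases and in the control of autophagy and lysosomes.

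Total counts over genes ran between 15740143 and 22271565 per library. CPT1A was at 2.16, 2.00 and 1.96 FPKM (fragments per kilobase of exon, scaled to library size) in the CPT1A shRNA libraries, against 6.70, 8.06 and 8.0 FPKM in control libraries. Its log2 change was -1.97 ± 0.09 (SE, n = 3 each; edgeR adjusted p = 3.3e-06). On the first principal component, with 61.2% of the variance, the CPT1A shRNA libraries lay at 26.5 to 32.9, and control replicate 2 at -17.7 lay nearer to them than the other controls at -36.1 and -34.6. Of 10 epithelial and ovarian markers, 8 passed the expression minimum, which required 1 FPKM or more in 3 or more libraries. The exceptions were WT1, at 0.87 to 1.24 FPKM in CPT1A shRNA and 0.57 to 0.82 FPKM in control libraries, and MUC16, at 0.02 to 0.03 and 0.01 to 0.02 FPKM in CPT1A shRNA and control libraries. The summed level of the 10 was 1101 to 1262 FPKM in CPT1A shRNA libraries and 1611 to 1972 FPKM in control libraries. Most of that difference lay in KRT19 (mean 250 FPKM in CPT1A shRNA against 603 in control libraries), KRT8 (319 against 513) and KRT7 (84 against 162). PAX8 was also lower (61 against 87), but ERBB2 (217 against 181), WT1 and MUC16 had the higher mean in CPT1A shRNA libraries. ERBB2, KRT18, EPCAM and CDH1 had an edgeR adjusted p of 0.0734 or more. No marker of fibroblasts (4 genes), immune cells (5) or endothelium (2) passed; CD3E was at 0 in every library, and the fibroblast sum was 0.25 to 0.49 FPKM in CPT1A shRNA and 1.83 to 2.00 FPKM in control libraries. In such bulk samples, fewer cells that use a gene and less of its RNA per cell cannot be told apart.

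Of the 10 genes, 9 passed the expression minimum and were fitted, and C9orf72 did not. SMCR8 and ATG7 were higher in the CPT1A shRNA libraries, OPTN and PINK1 were lower, and the other 5 fitted genes were not past the threshold. The 4 past it, an edgeR adjusted p under 0.05 over all 12784 tested genes, are to be set beside 27.4% of all tested genes, of which 13.8% were higher and 13.7% lower. Higher genes made up 50.2% of all calls, but 61.6% with total counts as the scaling and 60.5% and 60.7% with the limma fits on FPKM. FPKM values of the groups did not overlap in 5 of the 9, the same 4 and BECN1. That is 3 higher and 2 lower, beside 42.6% of all tested genes, 25.8% higher and 16.8% lower. The median log2 change was -0.06 over the 9 genes and -0.01 over all tested genes. As the genes were chosen with this comparison known, these counts describe the choice.

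**Figure D1:**
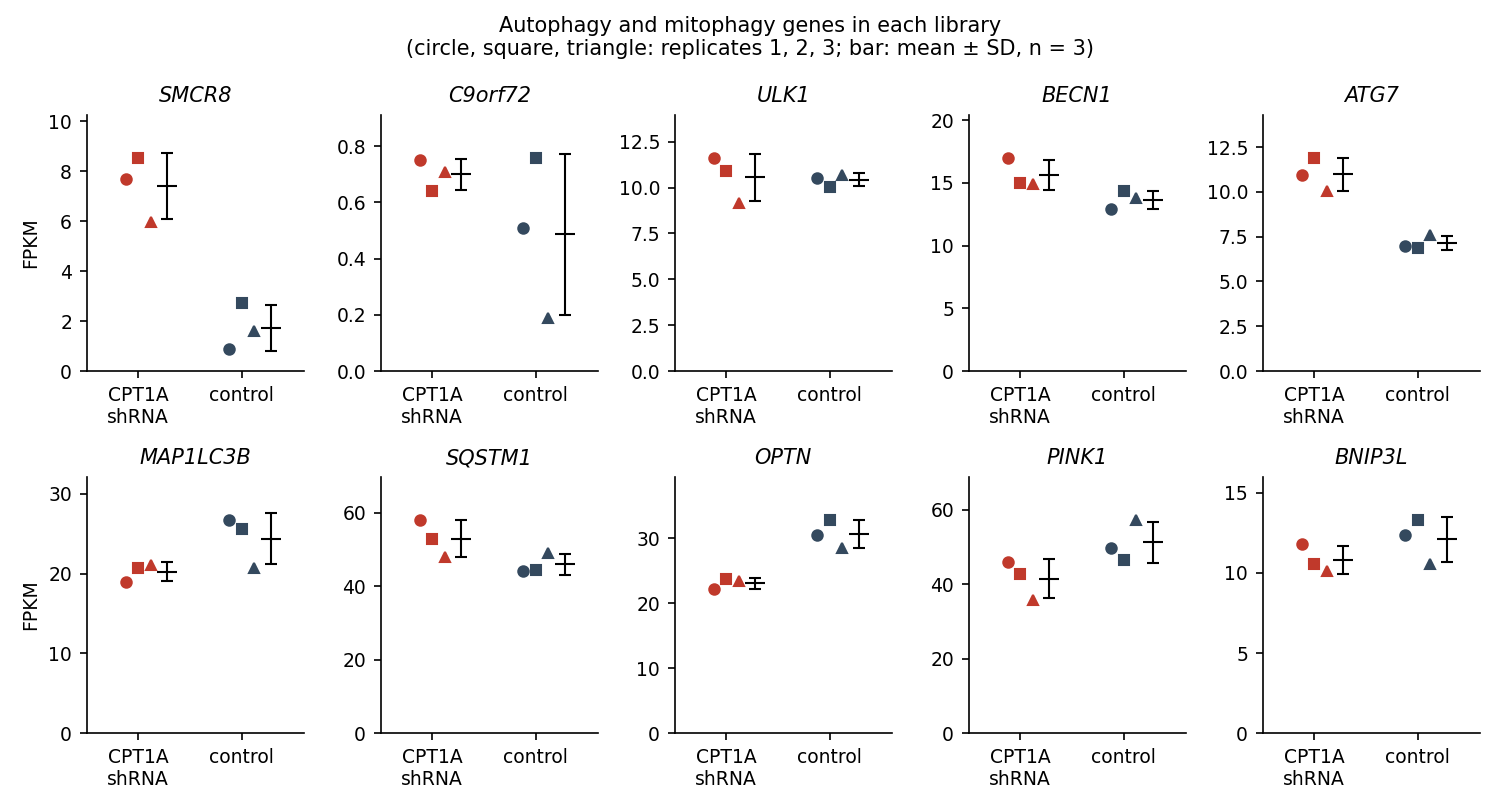
FPKM of each of the 10 genes in each library, CPT1A shRNA (red) left of control (dark blue), with the mean and SD of 3 libraries beside the points and each vertical axis starting at 0. The SMCR8 points lie at 5.95 to 8.55 FPKM in CPT1A shRNA and 0.88 to 2.71 FPKM in control libraries, while the groups of ULK1 and C9orf72 overlap.

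SMCR8 had the largest difference of the 10. It was at 7.70, 8.55 and 5.95 FPKM in the CPT1A shRNA libraries (496, 461 and 384 counts), against 0.88, 2.71 and 1.61 FPKM in control libraries (55, 207 and 106 counts). All CPT1A shRNA libraries lay above all controls, and the controls spread widely, with control replicate 2 the highest. Control replicate 1 was under 1 FPKM, so SMCR8 passed the minimum of 3 libraries only through the CPT1A shRNA group. The fitted log2 change was 2.02 ± 0.47 (SE), a 4.04-fold difference. It was 2.47 without control replicate 2 and 1.71 without control replicate 1. The coefficient of variation was 17.9% in CPT1A shRNA and 53.1% in control libraries. The authors' gene model for SMCR8 (ENSG00000176994, chromosome 17 from 18218624 to 18226517, plus strand) has 3427 exonic bases, against 8279 in GENCODE 29. Reads in the bases that the shorter model lacks were not analysed here, so its FPKM under the longer model is not known.

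By the authors' coordinates SMCR8 overlaps no other gene that passed the expression minimum. Overlap with genes under the minimum, or of the longer GENCODE 29 model, was not examined. TOP3A, which encodes a DNA topoisomerase, starts 302 bases away on the opposite strand. TOP3A, named after its values were seen, was at 5.88, 5.11 and 5.79 FPKM in CPT1A shRNA libraries and 3.29, 4.10 and 3.87 FPKM in control libraries. It rose by 0.51 ± 0.10 on the log2 scale (SE; edgeR adjusted p = 0.0175), a smaller difference than that of SMCR8, and it no longer passed without control replicate 1 (edgeR adjusted p = 0.108), without CPT1A shRNA replicate 1 (0.0615) and without CPT1A shRNA replicate 3 (0.0654), within a range of 0.00545 to 0.108 over 15 alternatives. The stretch between such divergent starts carries the promoters of both genes, and the 250 bases before the SMCR8 start, from RefSeq on GRCh38.p14, are therefore shown (chr17:18315043-18315292, plus strand), with the promoters of ATG7 (chr3:11272147-11272396, plus strand) and OPTN (chr10:13099832-13100081, plus strand, the more upstream of 2 starts), which differed in opposite directions. Capitals mark matches, on either strand, to 4 motifs chosen after the data were seen: the E-box CACGTG, bound by TFEB and its relatives, the core TGACNNNGC of the antioxidant response element, the GC box GGGCGG and the ETS core CCGGAAG.
SMCR8: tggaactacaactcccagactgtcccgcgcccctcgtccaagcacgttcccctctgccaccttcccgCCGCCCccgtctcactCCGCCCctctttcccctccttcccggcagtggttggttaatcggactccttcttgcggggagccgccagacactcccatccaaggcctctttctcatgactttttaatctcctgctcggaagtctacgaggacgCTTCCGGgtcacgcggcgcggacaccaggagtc
ATG7: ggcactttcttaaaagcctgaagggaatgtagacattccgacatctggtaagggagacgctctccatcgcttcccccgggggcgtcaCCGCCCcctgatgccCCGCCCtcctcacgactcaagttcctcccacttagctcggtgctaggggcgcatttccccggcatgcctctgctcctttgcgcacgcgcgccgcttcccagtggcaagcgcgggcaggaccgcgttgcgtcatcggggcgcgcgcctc
OPTN: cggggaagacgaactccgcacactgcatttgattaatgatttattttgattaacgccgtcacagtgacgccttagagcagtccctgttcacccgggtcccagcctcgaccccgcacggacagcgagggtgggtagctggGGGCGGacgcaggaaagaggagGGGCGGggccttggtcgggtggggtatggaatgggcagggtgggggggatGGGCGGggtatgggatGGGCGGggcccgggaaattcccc

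The SMCR8 stretch held 2 GC boxes and 1 ETS core, the ATG7 stretch 2 GC boxes and the OPTN stretch 4 GC boxes, with no overlap between motifs. RefSeq starts were found for 8 of the 10 genes, 12 starts in all, up to 3 for a gene. A GC box was held by 11 of the 12 starts, an ETS core by 2 (SMCR8 and BECN1), the antioxidant core by 1 (MAP1LC3B) and the E-box by 0. Over all 35116 RefSeq starts, a window of the same length held these motifs in 42.6%, 8.52%, 10.9% and 6.34% of cases. Starts of 1 gene can share bases, and 11 of the 12 windows were richer in G and C (47.6% to 78.0% over the 12) than the median window of all starts (58.0%). These are matches of letters only.

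C9orf72, the partner of SMCR8, did not reach the FPKM minimum, which is scaled to its model of 6061 exonic bases. It had 85, 61 and 81 counts in CPT1A shRNA libraries and 56, 102 and 22 counts in control libraries, or 0.70 ± 0.06 and 0.49 ± 0.29 FPKM (SD, n = 3 each). The groups overlapped, and control replicate 2 was above every CPT1A shRNA library. Fitted without the minimum, its log2 change was 0.46. WDR41, the third protein of the complex and not among the 10 genes, was at 5.66, 5.64 and 5.63 FPKM in CPT1A shRNA libraries, above the 4.05, 4.33 and 3.74 FPKM of control libraries. It rose by 0.41 ± 0.04 on the log2 scale (SE; edgeR adjusted p = 0.0288), and it did not pass in 8 of 15 alternatives (edgeR adjusted p of up to 0.125), which include every fit without 1 CPT1A shRNA library.

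The initiation genes differed little. ULK1 was at 11.64, 10.89 and 9.14 FPKM in CPT1A shRNA libraries and 10.54, 10.04 and 10.71 FPKM in control libraries. The groups overlapped, and the log2 change of -0.06 ± 0.11 (SE) took the other sign in 4 of 15 alternatives: with total counts as the scaling (0.02), in both limma fits (0.01 each) and without CPT1A shRNA replicate 3 (0.04). BECN1 was at 17.03, 14.97 and 14.92 FPKM in CPT1A shRNA libraries and 12.91, 14.34 and 13.77 FPKM in control libraries. Its groups did not overlap in FPKM, but its log2 change was only 0.12 ± 0.07 (SE) and not past the threshold. BECN1 shares 8966 bases of its locus with PSME3, which encodes a proteasome activator on the opposite strand and which rose by 0.34 ± 0.09 (SE; edgeR adjusted p = 0.0297, lost without control replicate 1 at 0.117, CPT1A shRNA replicate 2 at 0.131 and replicate 3 at 0.135, and with the replicate number as a block at 0.0659, within 0.0116 to 0.135 over 15 alternatives). No source used here states whether counting used strand, so reads of genes that overlap in opposite directions may not be separable.

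The conjugation genes differed in opposite directions. ATG7 was at 10.94, 11.92 and 10.06 FPKM in CPT1A shRNA libraries, all above the 7.0, 6.87 and 7.59 FPKM of control libraries. The log2 change was 0.54 ± 0.09 (SE), or 1.46-fold, and ranged from 0.48 to 0.61 over the fits without 1 library. Exonic length moved with the differences: over all 12784 tested genes Spearman's rho between length and log2 change was 0.25, and median lengths were 6198 bases for higher and 3366 bases for lower genes. With each library's length trend removed, ATG7, whose model has 8833 exonic bases, was at 0.37 and no longer past the threshold. SMCR8 was at 2.08, but it entered that fit with the authors' 3427 bases. Its value with the 8279 bases of GENCODE 29 is not known. ATG7 overlaps VGLL4, a transcription cofactor gene on the opposite strand, by 1596 bases, and VGLL4 rose by 0.69 ± 0.12 on the log2 scale (SE; edgeR adjusted p = 0.00276).

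MAP1LC3B, which encodes the ATG8 protein used most often as a marker of autophagosomes, was at 18.90, 20.68 and 21.14 FPKM in CPT1A shRNA libraries and 26.77, 25.56 and 20.76 FPKM in control libraries. Control replicate 3 lay within the CPT1A shRNA group. The log2 change was -0.34 ± 0.12 (SE) and not past the threshold, though past it in DESeq2, without control replicate 2, without control replicate 3 and with the length trend removed. Its near-identical copy MAP1LC3B2, at 5.12 to 6.64 FPKM in CPT1A shRNA and 3.18 to 4.21 FPKM in control libraries, can share its reads, so both values are uncertain (log2 change of MAP1LC3B2 0.57 ± 0.17, SE; edgeR adjusted p = 0.0792). FBXO31, an F-box gene that overlaps MAP1LC3B by 8148 bases on the opposite strand, had a log2 change of -0.33 ± 0.08 (SE; edgeR adjusted p = 0.0701).

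**Figure D2:**
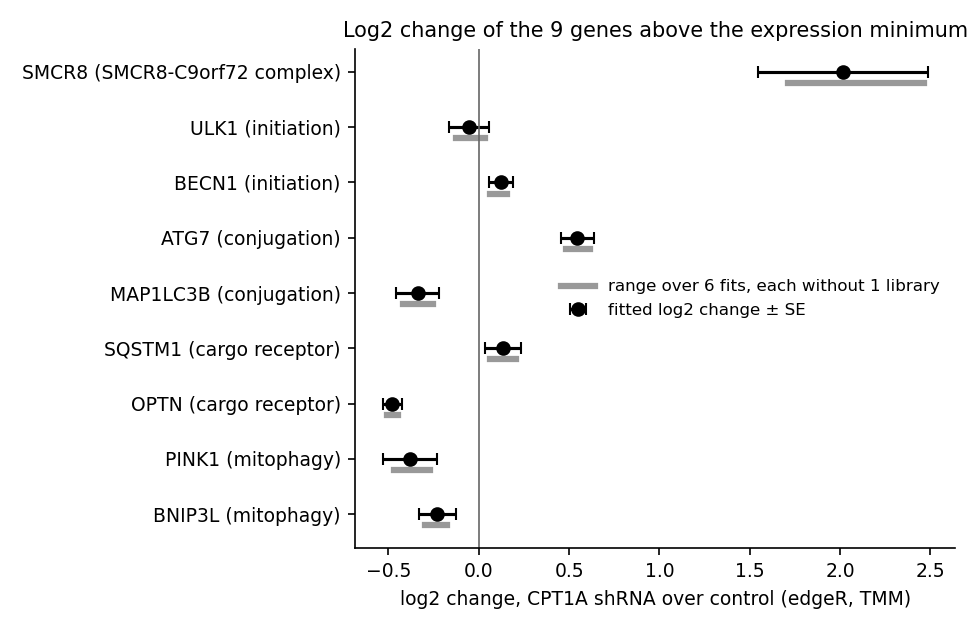
Fitted log2 change of CPT1A shRNA over control for the 9 fitted genes, ordered by role. Points are edgeR values with SE, and grey bars span the 6 fits that leave out 1 library each. SMCR8 stands at 2.02, and the other 8 lie between -0.48 (OPTN) and 0.54 (ATG7), with the bar of ULK1 crossing 0.

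Of the cargo receptors, SQSTM1 was at 58.07, 52.74 and 47.85 FPKM in CPT1A shRNA libraries and 44.19, 44.38 and 49.04 FPKM in control libraries. CPT1A shRNA replicate 3 lay below control replicate 3, so the groups overlapped, and the log2 change was 0.13 ± 0.10 (SE). With the length trend removed its sign turned, to -0.0069. SQSTM1, which is also a known target of the stress factor NRF2, overlaps MGAT4B by 565 bases on the opposite strand. MGAT4B, which encodes a glycosyltransferase of the Golgi, fell by 0.76 on the log2 scale (SE 0.12; edgeR adjusted p = 0.000549), whereas C5orf45, which overlaps the other end by 3643 bases, had a log2 change of -0.15 ± 0.12 (SE; edgeR adjusted p = 0.475). OPTN was at 22.16, 23.73 and 23.41 FPKM in CPT1A shRNA libraries, all below the 30.58, 32.91 and 28.56 FPKM of control libraries. It had the lowest spread within the CPT1A shRNA group, a coefficient of variation of 3.59%, against 7.09% in control libraries. Its log2 change was -0.48 ± 0.05 (SE), or 1.39-fold lower, and lay between -0.51 and -0.39 over all 15 alternatives.

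Of the mitophagy genes, PINK1 was at 45.96, 42.80 and 35.66 FPKM in CPT1A shRNA libraries, all below the 49.89, 46.64 and 57.40 FPKM of control libraries. The gap between the groups was narrow, with CPT1A shRNA replicate 1 just under control replicate 2. The log2 change was -0.38 ± 0.15 (SE), or 1.30-fold lower. It was no longer past the threshold in 7 of 15 alternatives: with total counts, in both limma fits, and without control replicate 1, control replicate 3, CPT1A shRNA replicate 2 or CPT1A shRNA replicate 3. PINK1 shares 8855 bases with its antisense gene PINK1-AS, at 2.10, 1.74 and 1.82 FPKM in CPT1A shRNA libraries and 1.14, 1.61 and 1.56 FPKM in control libraries, a log2 change of 0.32 ± 0.16 (SE; edgeR adjusted p = 0.238). Parkin itself, listed as PARK2, was under the minimum at 0.19 FPKM in CPT1A shRNA and 0.48 FPKM in control libraries on average. BNIP3L was at 11.80, 10.58 and 10.10 FPKM in CPT1A shRNA libraries and 12.38, 13.32 and 10.57 FPKM in control libraries, with overlapping groups and a log2 change of -0.23 ± 0.10 (SE). PNMA2, which overlaps it by 951 bases, had a log2 change of 0.25 ± 0.17 (SE; edgeR adjusted p = 0.328).

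On the FPKM scale the genes kept much of their order of level. In CPT1A shRNA libraries it ran SQSTM1 (52.9 ± 5.1), PINK1 (41.5 ± 5.3), OPTN (23.1 ± 0.8), MAP1LC3B (20.2 ± 1.2), BECN1 (15.6 ± 1.2), ATG7 (10.97 ± 0.93), BNIP3L (10.8 ± 0.9), ULK1 (10.6 ± 1.3), SMCR8 (7.40 ± 1.33) and C9orf72 (SD, n = 3). In control libraries it ran PINK1 (51.3 ± 5.5), SQSTM1 (45.9 ± 2.7), OPTN (30.7 ± 2.2), MAP1LC3B (24.4 ± 3.2), BECN1 (13.7 ± 0.7), BNIP3L (12.1 ± 1.4), ULK1 (10.4 ± 0.3), ATG7 (7.15 ± 0.38), SMCR8 (1.73 ± 0.92) and C9orf72 (SD, n = 3). Neighbours whose libraries overlapped were ATG7, BNIP3L and ULK1 in CPT1A shRNA libraries. In control libraries they were PINK1 with SQSTM1, BECN1 with BNIP3L, and BNIP3L with ULK1.

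**Figure D3:**
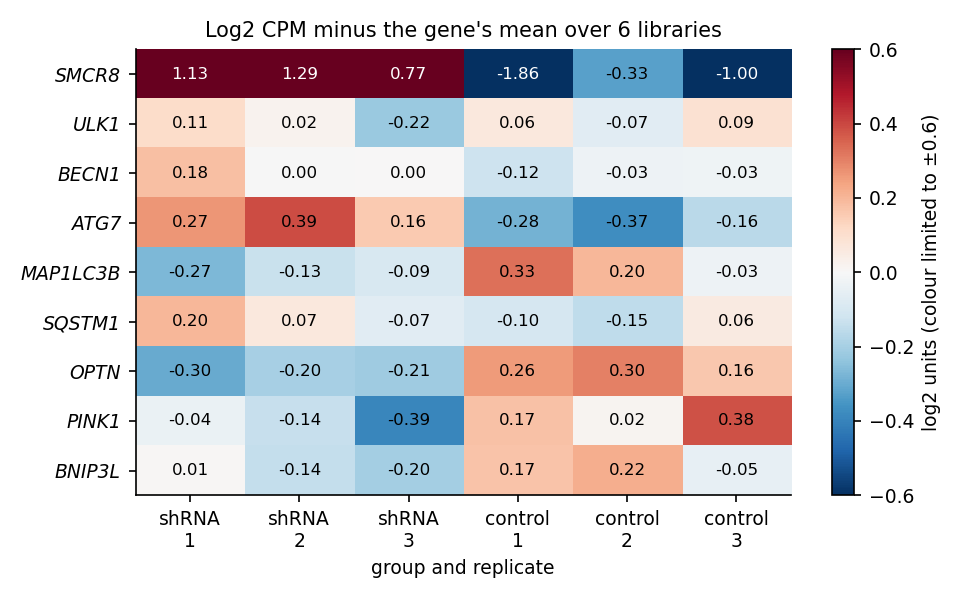
Log2 CPM of the 9 fitted genes in each library minus the gene's mean over the 6 libraries, CPT1A shRNA left of control, with colour limited to 0.6 in either direction. Control replicate 2 stands at -0.33 for SMCR8, between the CPT1A shRNA libraries (0.77 to 1.29) and the other controls (-1.86 and -1.003), but at -0.37 for ATG7 and 0.30 for OPTN it is the control farthest from them.

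Control replicate 2, which lay toward the CPT1A shRNA libraries over all genes, did so for SMCR8, where it was 1.10 log2 units above the mean of the other controls, and for PINK1, where it was 0.26 units below it. For ATG7 and OPTN it lay on the far side of the other controls, by 0.15 and 0.09 units.

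A wider list of 98 other autophagy genes in 11 functional groups was matched to the table in full, and 91 passed the expression minimum. This list too was chosen with earlier results of these data known, so its counts, shares and p-values are given as a description. Of the 91, 18 were higher and 8 lower at an edgeR adjusted p under 0.05, together 28.6%, close to the 27.4% of all tested genes. Higher calls made up 19.8% of the list against 13.8% of all tested genes, and lower calls 8.79% against 13.7%. The median log2 change was 0.04, against -0.01 over all tested genes. The 18 higher genes had a median exonic length of 7697 bases, the 8 lower genes 4212 bases and the 65 others 5306 bases, and the part of length in the calls was not tested beyond the fit with the trend removed, which gave 16 higher and 10 lower. In that fit 8 of the 25 genes named from the list no longer passed, 6 of them higher (ULK2, RUBCN, AMBRA1, WDR41, EPG5 and TSC1) and 2 lower (GABARAP and FUNDC1), with EPG5 at 0.32 and TSC1 at 0.33 on the log2 scale. Without control replicate 1 the counts were 6 higher and 2 lower, without CPT1A shRNA replicate 2 they were 7 and 3, and without control replicate 2 they were 24 and 16. Of 25 named genes, 8 kept their call in all 15 alternatives (TOLLIP, NBR1, RAB1A, VPS33A, STX17, FOXO3, MTOR and RPTOR), and all 17 others lost it without control replicate 1. The call was lost in 9 of 15 alternatives for GABARAP and VMP1, in 8 for FUNDC1, TFE3 and WDR41, in 7 for RUBCN, in 6 for AMBRA1, in 5 for ATG10 and in 2 to 4 for the other 9.

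The counts by functional group, here and below, are to be set beside 13.8% higher and 13.7% lower of all tested genes. With 4 to 14 tested genes per group they are descriptions, and no group was tested as a set. In the mTORC1 and AMPK group, 3 of 9 genes rose and the other 6 did not pass. MTOR, the kinase that restrains autophagy when nutrients are plentiful, was at 11.13, 12.10 and 10.54 FPKM in CPT1A shRNA libraries, against 5.19, 6.43 and 5.81 FPKM in control libraries. Its log2 change was 0.88 ± 0.09 (SE; edgeR adjusted p = 0.000228), the largest rise among the 91 in the main fit. With the length trend removed MTOR was at 0.64, below STX17 (0.79) and FOXO3 (0.70). Without control replicate 2 it was at 0.94, below WDFY3 (1.12), FOXO3 (1.04) and STX17 (0.96). RPTOR, its partner in mTORC1, rose by 0.68 ± 0.08 (SE; edgeR adjusted p = 0.000933), and TSC1, of the complex that inhibits mTORC1, by 0.52 ± 0.07 (SE; edgeR adjusted p = 0.00693). Among the transcription factors 2 of 5 rose and the other 3 did not pass. FOXO3, an activator of autophagy genes, was at 12.84, 14.24 and 13.79 FPKM in CPT1A shRNA libraries and 6.66, 9.75 and 5.79 FPKM in control libraries (log2 change 0.81 ± 0.21, SE; edgeR adjusted p = 0.00254). TFE3, a relative of TFEB, rose by 0.33 ± 0.09 (SE; edgeR adjusted p = 0.0472, above the threshold in 8 of 15 alternatives and up to 0.213), whereas TFEB stood at -0.38 ± 0.15 on the log2 scale and did not pass (SE; edgeR adjusted p = 0.104).

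Among cargo receptors 3 of 9 rose and 1 fell. NBR1, a ubiquitin-binding receptor related to SQSTM1, was at 19.62, 19.65 and 18.88 FPKM in CPT1A shRNA libraries and 12.39, 15.20 and 11.04 FPKM in control libraries (log2 change 0.52 ± 0.12, SE; edgeR adjusted p = 0.00615). The ferritin receptor NCOA4 rose 1.38-fold and WDFY3 1.72-fold, and TOLLIP fell 1.64-fold (edgeR adjusted p = 0.00152). Among fusion genes 3 of 14 rose and 2 fell. The SNARE gene STX17 was at 4.64, 6.49 and 5.27 FPKM in CPT1A shRNA libraries and 2.88, 3.74 and 2.41 FPKM in control libraries (edgeR adjusted p = 0.0071). VPS33A, of the HOPS tethering complex, rose 1.64-fold and EPG5 1.49-fold, while the SNARE gene VAMP8 fell 1.48-fold and VPS39, also of HOPS, 1.28-fold. In the group of SMCR8 and C9orf72 partners 1 of 6 rose, WDR41, and 1 fell. RAB1A, a GTPase of early secretion that binds C9orf72, was at 28.59, 27.43 and 29.98 FPKM in CPT1A shRNA libraries, against 51.94, 55.08 and 46.57 FPKM in control libraries. It fell by 0.91 on the log2 scale (SE 0.07; edgeR adjusted p = 0.00012), the largest decrease among the 91.

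**Figure D4:**
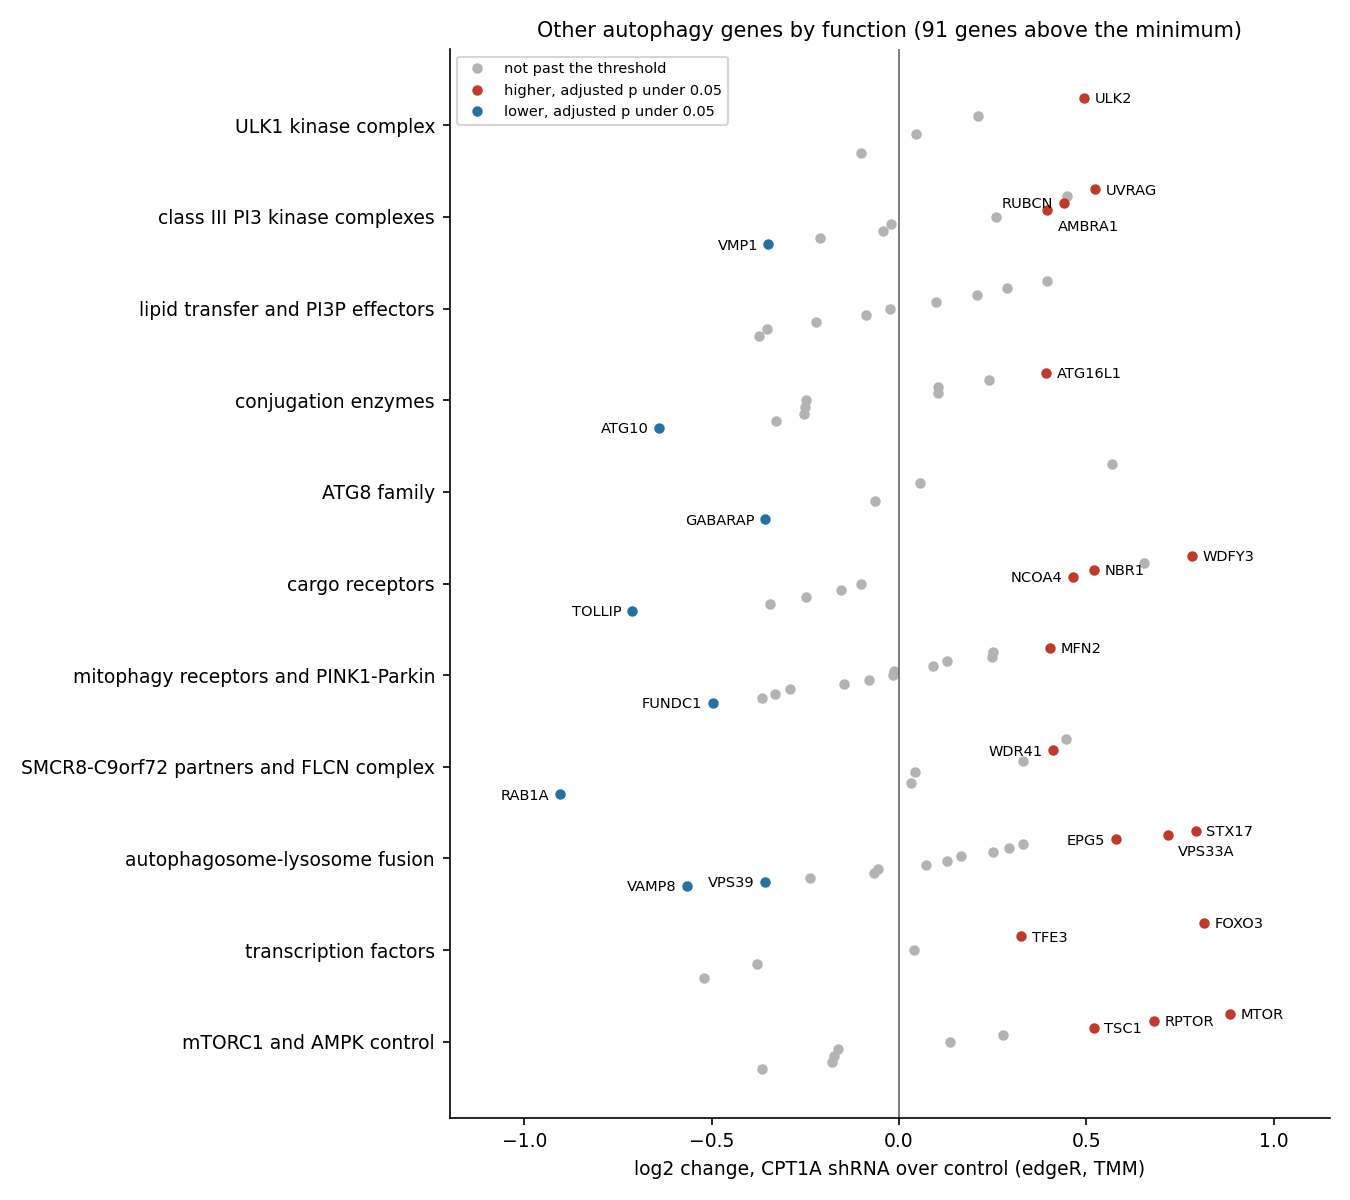
Log2 change of CPT1A shRNA over control for 91 other autophagy genes in 11 functional groups, 1 point per gene, spread vertically within a group by rank. Red points (18) are higher and blue points (8) lower at an edgeR adjusted p under 0.05, from RAB1A at -0.91 to MTOR at 0.88.

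In the ULK1 complex 1 of 4 genes rose, ULK2, the close relative of ULK1 (1.41-fold, edgeR adjusted p = 0.0242). The group of the class III PI3 kinase complexes, which hold BECN1, was drawn widely. It also took in regulators and VMP1, which is not a subunit of these complexes. In this group 3 of 9 rose and 1 fell. UVRAG, which binds BECN1, rose 1.44-fold, RUBCN, which inhibits the complex, 1.36-fold and the BECN1 regulator AMBRA1 1.32-fold, and VMP1, a lipid scramblase of the endoplasmic reticulum, fell 1.27-fold with overlapping groups (edgeR adjusted p = 0.0196 to 0.0494). Among lipid transfer proteins and PI3P effectors, as listed without VMP1, 0 of 9 passed in edgeR. There 2 had an unadjusted edgeR p under 0.05 (ATG2A and WDR45), and 1 passed in DESeq2 and in each limma fit. Of the conjugation enzymes ATG16L1, which places the conjugation machinery on the membrane, rose 1.31-fold and the E2-like enzyme ATG10 fell 1.56-fold, and the other 7 of 9 did not pass. In the ATG8 family GABARAP fell 1.28-fold (edgeR adjusted p = 0.0412, above the threshold in 9 of 15 alternatives and up to 0.197) and the other 3 of 4 did not pass. Among 13 other mitophagy genes the outer-membrane fusion protein MFN2, a substrate of PINK1 and Parkin, rose 1.32-fold (edgeR adjusted p = 0.0118) and the receptor FUNDC1 fell 1.41-fold (edgeR adjusted p = 0.0284). BNIP3, the close relative of BNIP3L, was at 17.56 to 18.87 FPKM in CPT1A shRNA and 20.51 to 21.50 FPKM in control libraries, and its difference of -0.29 ± 0.04 on the log2 scale did not pass (SE; edgeR adjusted p = 0.0925).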

How the data were processed

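The 10 genes, the wider list and the alternatives were chosen with earlier results of these data known. The table deposited by the authors holds raw counts per gene and library, and FPKM values that equal the count scaled to exonic length and library total within 0.0051. Per the submitters' processing notes the tools were HTSeq 0.6.1, HISAT2 2.0.1, DESeq2 and cutadapt 1.9.1, with no roles given. Those notes list mouse build mm8, yet the identifiers are human, so coordinates are as in the table and no source used here states their build.

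A gene entered the test if 3 or more libraries reached 1 FPKM (12784 genes). The test was edgeR 4.0.16 under R 4.3.3 with TMM scaling, a quasi-likelihood F test, Benjamini-Hochberg adjustment over all tested genes and a threshold of 0.05. Log2 changes are fitted, CPT1A shRNA over control. SE comes from the spread of log2 CPM (prior count 2) within groups and belongs to the difference of their means. Alternatives used limma 3.58.1 and DESeq2 1.42.0. The edgeR procedure was also run on simulated counts. Those held no length trend and no control library set apart from the others, so that run does not cover these features of the data. Named genes were the 10, CPT1A, up to 4 called genes per functional group with the smallest p, expressed genes overlapping one of the 10, and the 3 profiles nearest to SMCR8. TOP3A, VPS39, ATG2A, WDR45, PARK2 and the uncalled MAP1LC3B2, TFEB and BNIP3 were added after their values were seen.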

Additional observations from a re-analysis of the deposited data

How the results depend on the processing

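Of 15 alternatives, 14 were planned, though with earlier results of these data known. The other 1, the removal of length trends, was added after seeing the data. Under all 15, CPT1A kept its direction and its call, with log2 changes of -2.06 to -1.49. Leaving out 1 library each gave 968 to 2539 higher genes and 914 to 2511 lower genes over the whole table, 2 higher and 1 to 3 lower among the 10 genes, and 6 to 24 higher and 2 to 16 lower in the wider list. Among the 10 genes, the 2 higher became 1 with the length trend removed, and the 2 lower became 1 with total counts and with limma on log2(FPKM + 1) or log2(FPKM + 0.1). In the wider list, the 8 lower became 4 with total counts, 5 with either limma fit and 4 with the replicate block. The cause was not tested, except that fits without a library have fewer samples. No direction reversed among the 25 named genes of the wider list, but among the 10 genes ULK1 turned sign in 4 of 15 alternatives and SQSTM1 with the length trend removed (-0.0069), neither past the threshold. The median change of all genes stayed within 0.1 log2 units of 0 in every fit, and higher calls made up 50.2% of calls, 61.6% with total counts and 60.5% and 60.7% with the limma fits. The labels do not say that equal replicate numbers share a culture or day, so the numbers were not taken as pairs. Libraries with the same replicate number did not deviate together (correlations of -0.07, 0.01 and -0.25). Between unequal numbers the correlations ran from -0.16 to 0.21. With the replicate block the calls were 1667 higher and 1595 lower over the whole table, 2 and 2 among the 10 genes and 15 and 4 in the wider list, with CPT1A at -1.96. The control values of SMCR8 rest on 55 to 207 counts per library, and the part of depth in their spread was not tested.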

Other observations

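The 3 tested genes with profiles nearest to that of SMCR8, by Euclidean distance of mean-centred log2 CPM over the 6 libraries, were XIST (distance 0.31), RP11-54F2.1 (0.45) and KLHL11 (0.46). Like SMCR8, each was higher in the CPT1A shRNA libraries and highest among controls in replicate 2, which follows from choosing them by nearness to its profile. XIST was at 2.24, 2.05 and 1.36 FPKM in CPT1A shRNA libraries and 0.25, 0.68 and 0.38 FPKM in control libraries. It thus passed the expression minimum only through the CPT1A shRNA group. KLHL11, an adaptor of ubiquitin ligases, was at 2.57, 2.40 and 1.80 FPKM in CPT1A shRNA libraries and 0.30, 1.13 and 0.52 FPKM in control libraries, and RP11-54F2.1 was at 7.25, 10.09 and 7.37 FPKM in CPT1A shRNA libraries and 0.89, 2.25 and 1.63 FPKM in control libraries. The same limit holds for KLHL11, RP11-54F2.1 and SMCR8 itself, which had fewer than 3 control libraries at 1 FPKM or more. Distances were taken over samples that include the groups compared and are a description.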
